A study of Mus musculus with 15 samples.

Results

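Gene expression in mouse brain was compared between 3 libraries of the condition named APOE_L and 3 untreated libraries named CTRL_L. The label of APOE_L names KA together with APOE. KA is kainic acid, an agonist of kainate-type glutamate receptors that is widely used to provoke seizures in rodents. Every library of the study, CTRL_L included, carries the label of C57BL/6 mice and of a KA-induced TLE (temporal lobe epilepsy) model. Nothing in the labels states how APOE was altered or given, what the letter L stands for, the age or sex of the mice, or the time of sampling. Separate animals are not stated for the replicates either, and the p-values thus speak of library-to-library spread that may be technical. A further 3 libraries, KA_L, have a label that names KA without APOE and serve for comparison. In all, 15 libraries made up the study. Brain was frozen, RNA was extracted with Trizol and libraries were made from total RNA with a TruSeq kit. The unit is TPM, a transcript abundance that is scaled for transcript length and to the same total in each library and keeps no read depth. An entry is described here when 3 or more of the 6 APOE_L and CTRL_L libraries reached 1 TPM. There were 10818 of them among 65964 in the table, 9018 with a gene symbol (8048 protein-coding genes), 1668 assembled loci without a name and 132 Ensembl identifiers without a symbol. Of these, 4395 reached 1 TPM in all 6 libraries and 2270 in exactly 3, just inside the rule, while 2914 entries reached it in 2 and were left out.

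Microglia are the resident macrophages of the brain. In injury, demyelination and neurodegeneration they lower genes of their resting state and raise a set that includes Apoe, Cst7, Spp1, Lpl and Clec7a, often called the disease-associated microglia (DAM) genes, part of which depends on the lipid receptor TREM2. ApoE is the main lipoprotein of the brain, made by astrocytes and by activated microglia, and carries cholesterol and phospholipids between cells. Seizures are known to raise chemokines and other inflammatory genes in microglia.

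In APOE_L, Apoe fell to 1 TPM or less in every library. The DAM genes Cst7, Spp1, Clec7a and Lpl were high in APOE_L and near 0 in CTRL_L. The MHC class I light chain B2m and the chemokine Ccl3 were abundant in both groups and higher in APOE_L. Genes that fell besides Apoe were of mixed function, among them Chchd10, Cnn3, Atp1b1, Gpm6a, H2-Oa and G6pc3, and most were under 1 TPM in every APOE_L library. In all, 21 entries rose and 28 fell at an adjusted p under 0.05 (limma on log2(TPM + 1), Benjamini-Hochberg over 17505 tested entries), 0.28% of the entries tested (0.12% higher, 0.16% lower) and 0.453% of those described (0.194% higher, 0.259% lower). In bulk tissue, fewer cells of a type and less RNA per cell cannot be told apart.

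The promoters of Apoe, Cst7 and Spp1 are shown because these 3 genes moved the furthest apart within the DAM list, Apoe down and the others up. Each sequence holds the 250 bases before the RefSeq start (mouse build GRCm38.p6), 5′ to 3′ on the gene's strand. Apoe lies on the minus strand at chr7:19699189-19699438, Cst7 on the plus strand at chr2:150570165-150570414 and Spp1 on the plus strand at chr5:104434861-104435110.
Apoe: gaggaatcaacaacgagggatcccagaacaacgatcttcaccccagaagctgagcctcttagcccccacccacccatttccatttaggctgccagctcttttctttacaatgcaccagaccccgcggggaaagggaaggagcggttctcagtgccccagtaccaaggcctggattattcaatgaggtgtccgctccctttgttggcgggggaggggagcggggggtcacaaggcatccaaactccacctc
Cst7: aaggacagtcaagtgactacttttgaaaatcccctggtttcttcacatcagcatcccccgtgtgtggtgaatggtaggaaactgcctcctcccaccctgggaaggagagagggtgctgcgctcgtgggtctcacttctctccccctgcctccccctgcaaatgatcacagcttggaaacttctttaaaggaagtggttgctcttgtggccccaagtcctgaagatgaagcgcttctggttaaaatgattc
Spp1: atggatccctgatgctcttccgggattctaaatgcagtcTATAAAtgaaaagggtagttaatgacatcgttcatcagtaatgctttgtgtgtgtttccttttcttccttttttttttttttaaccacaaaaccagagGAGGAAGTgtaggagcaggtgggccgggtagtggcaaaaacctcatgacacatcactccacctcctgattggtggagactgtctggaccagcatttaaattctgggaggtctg
Capitals mark exact matches, searched on both strands, to 4 motifs. They are TATAAA (letters of the TATA box), GAGGAAGT (a form of the site of the macrophage factor PU.1), TGANTCA (AP-1) and CACGTG (an E-box). Spp1 held TATAAA, starting 211 bases before the start, and GAGGAAGT, starting 113 bases before it. None of the 4 had an exact match in the windows of Apoe and Cst7. Near matches were not counted. Of 27025 RefSeq promoters of the same length, 12.97% hold TATAAA, 2.44% GAGGAAGT, 6.87% TGANTCA and 6.05% CACGTG. A match is a string of letters, not evidence of binding.

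The libraries looked like microglia-rich preparations rather than whole brain. The 18 microglia identity genes summed to 22321, 22308 and 21880 TPM in APOE_L, against 40674, 13811 and 17208 TPM in CTRL_L, and all 18 were at 1 TPM or more in all 6 libraries. The 20 neuron markers summed to 5.42, 0.48 and 2.76 TPM in APOE_L and to 10.2, 66.8 and 26.5 TPM in CTRL_L. Snap25, which neurons express strongly, was at 0, 0 and 0.01 TPM in APOE_L and at 8.45, 0 and 0.08 TPM in CTRL_L. Gfap, the defining astrocyte filament, was at 0, 0.04 and 0 TPM in APOE_L and listed at 0 in all 3 CTRL_L libraries. Some other astrocyte markers were detected, not all of them in every library. Aqp4, the water channel of astrocyte endfeet, was at 53.5, 0 and 0 TPM in APOE_L and at 0, 0.75 and 0.34 TPM in CTRL_L. Slc1a3, a glutamate transporter, was at 41.5, 149 and 128 TPM in APOE_L and at 103, 129 and 81.3 TPM in CTRL_L. Of the 20 astrocyte markers, 2 were at 1 TPM or more in all 6 libraries and 3 were listed at 0 in all 6. Neuronal transcripts were thus scarce for tissue labelled as brain. Astrocytic ones were uneven, with few markers present throughout.

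Other cell types differed more between libraries. Choroid plexus epithelium markers (12 genes, among them Ttr, the transthyretin secreted into cerebrospinal fluid) summed to 232, 126 and 297 TPM in APOE_L, and to 139, 39716 and 24154 TPM in CTRL_L. CTRL_L replicates 2 and 3 thus stood apart from CTRL_L replicate 1 and from all 3 APOE_L libraries, and KA_L lay at 57.6, 1326 and 166 TPM. Astrocyte markers (20 genes) summed to 300, 257 and 198 TPM in APOE_L, below the 418, 1836 and 1114 TPM of CTRL_L. In CTRL_L replicates 2 and 3 Clu alone made up most of the sum. It was at 0.03, 1194 and 740 TPM in CTRL_L and at 0, 2.23 and 0 TPM in APOE_L. Endothelial markers (12 genes) summed to 138, 207 and 307 TPM in APOE_L, again below the 651, 995 and 666 TPM of CTRL_L. Bsg alone made up most of these sums, at 130, 204 and 209 TPM in APOE_L and 567, 813 and 509 TPM in CTRL_L. Cldn5, a defining endothelial marker, was listed at 0 in all of APOE_L and was at 0, 0 and 2.93 TPM in CTRL_L. The sums thus do not describe endothelial transcripts in general. Red blood cell markers (5 genes) reached 7386 TPM in APOE_L replicate 2 but 185 and 0.1 TPM in the other APOE_L libraries, against 126, 0.1 and 97.8 TPM in CTRL_L. Border macrophage and monocyte markers (12 genes) summed to 426, 278 and 117 TPM in APOE_L, overlapping the 32.9, 40.3 and 188 TPM of CTRL_L. No marker of these types passed the threshold, but without CTRL_L replicate 1, 9 of the 12 choroid plexus markers were called lower in APOE_L. The part of these cell types in the results below was not tested.

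**Figure D1:**
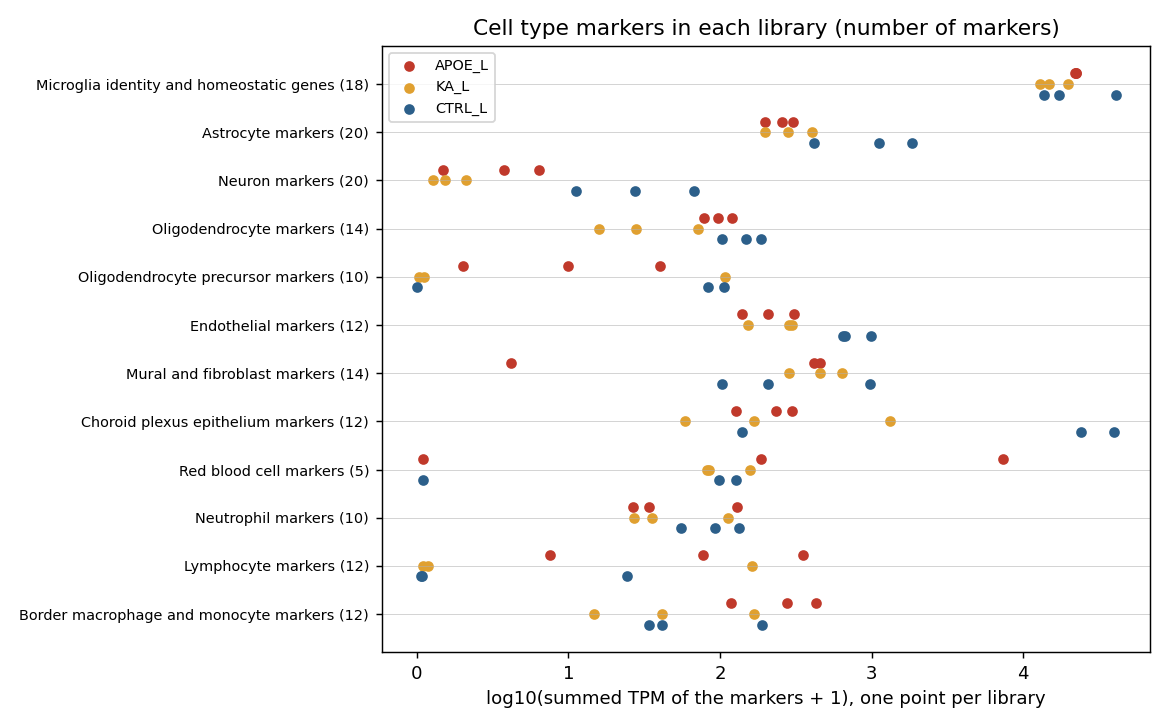
Summed TPM of cell type markers in each library, on a log10 scale after adding 1; each point is a library, with APOE_L above KA_L and CTRL_L in each row and the number of markers in brackets. Microglia genes are the highest of these sums in 7 of the 9 libraries; in CTRL_L replicates 2 and 3 the choroid plexus sum (39716 and 24154 TPM) lies above that of all 3 APOE_L libraries and above the microglia sum.

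The libraries also agreed poorly gene by gene. Spearman's rank correlation across all 17505 tested entries was 0.543 to 0.555 between APOE_L libraries and 0.498 to 0.520 between CTRL_L libraries. Between the groups it was 0.487 to 0.524. Entries are not independent replicates, so no p is given. Of the 10818 described entries, 2243 (20.7%) were under 1 TPM in an APOE_L library and at 20 TPM or more in another. Within CTRL_L 2719 (25.1%) did so. APOE_L had 73.1% to 74.8% of its TPM in protein-coding genes and 10.6% to 11.3% in assembled loci, against 78.6% to 83.5% and 6.73% to 8.94% in CTRL_L. The calls below use a spread pooled over all 15 libraries. With the 6 libraries alone none passed in limma. Of the 17505 tested entries, 959 were then at an unadjusted p under 0.05, near the share that this threshold passes without any difference. In the fit with all 15 libraries 1737 (9.92%) were.

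Apoe was at 0.69, 0.71 and 0 TPM in APOE_L, against 161, 889 and 555 TPM in CTRL_L. The groups were far apart, and no other gene with a symbol fell further. The log2 fold change of TPM + 1 was -8.24 (SE 0.87, limma adjusted p = 0.000359). An exact two-sided permutation test gave p = 0.1, the smallest that 20 splits of 3 against 3 libraries allow. With the 6 libraries alone the fold change was the same and the limma adjusted p was 0.518. KA_L had 3084, 3262 and 1970 TPM, above every CTRL_L library, and APOE_L lay below KA_L by -10.89 on the log2 scale (limma adjusted p = 1.19e-05).

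Neighbours of Apoe on chromosome 7 gave no call. Apoc1, a small apolipoprotein that activates lecithin-cholesterol acyltransferase, was listed at 0 in all 6 libraries of APOE_L and CTRL_L. Apoc4 was at 132, 0.54 and 100 TPM in APOE_L and at 0.09, 0.42 and 0.58 TPM in CTRL_L, with 1 APOE_L library inside the CTRL_L range (limma adjusted p = 0.331). Tomm40, a channel of the mitochondrial outer membrane, was at 88.3, 2.52 and 15.7 TPM in APOE_L and at 13.4, 1.70 and 0.52 TPM in CTRL_L (limma adjusted p = 0.696).

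**Figure D2:**
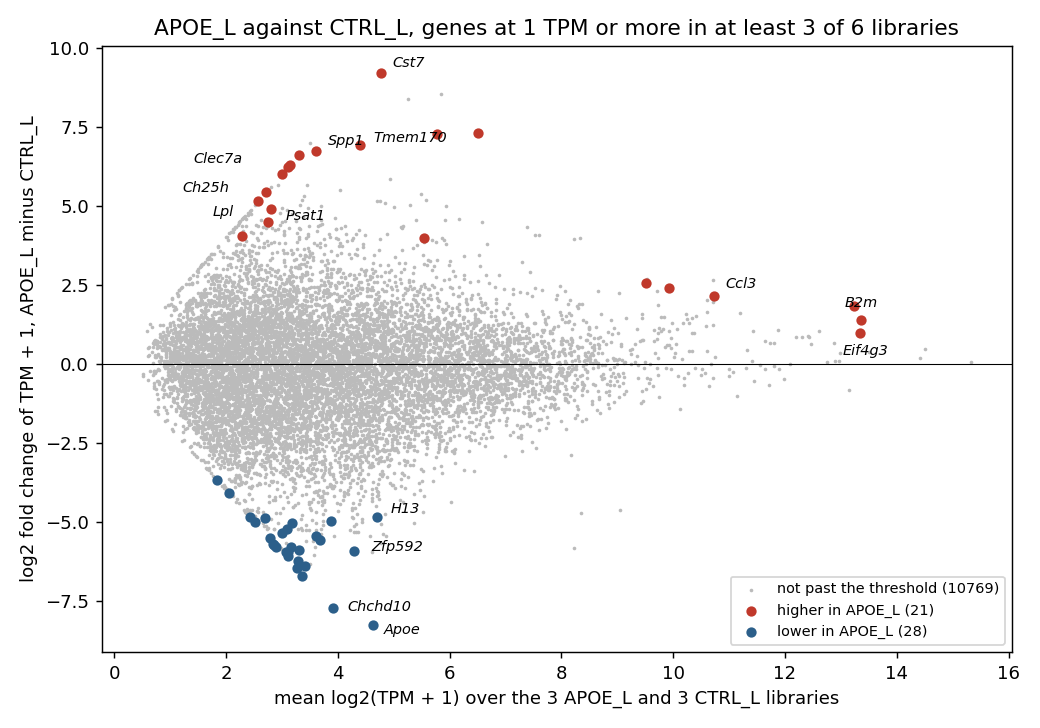
Log2 fold change of TPM + 1, APOE_L minus CTRL_L, against the mean log2(TPM + 1) over the 6 libraries, for 10818 entries; red points rose (21), blue points fell (28) and grey points did not pass the threshold (10769). Apoe is the lowest point and Cst7 the highest; the fallen entries lie at low to middle means, and the risen ones include a few of the most abundant.

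Among the 22 DAM genes tested, 5 rose (Cst7, Spp1, Clec7a, Lpl and B2m) and Apoe fell. Over all tested entries 0.12% rose and 0.16% fell. The median log2 fold change of the list was 1.04, against -0.02 over all tested entries and -0.13 over the described ones. B2m is also in the MHC class I list and is described there. Cst7, an inhibitor of lysosomal cathepsins, was at 1398, 318 and 644 TPM in APOE_L and at 0.21, 0.13 and 0.06 TPM in CTRL_L. The log2 fold change was 9.19 (SE 0.53, limma adjusted p = 6.84e-08), with no APOE_L library near the CTRL_L range. It was called without each of the 6 libraries in turn, at an adjusted p of at most 2.14e-06. Spp1 encodes osteopontin, a secreted phosphoprotein made by activated phagocytes. It was at 528, 5.84 and 557 TPM in APOE_L and at 0.45, 0.12 and 0.04 TPM in CTRL_L. The groups did not overlap, but APOE_L replicate 2 was far below the other APOE_L libraries. The log2 fold change was 6.73 (SE 1.23, limma adjusted p = 0.0307), and the adjusted p was 0.0966 without APOE_L replicate 1 and 2.44e-05 without replicate 2.

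Clec7a, the Dectin-1 receptor for fungal glucans, was at 56.6, 15.1 and 290 TPM in APOE_L and at 0, 0 and 0.02 TPM in CTRL_L (log2 fold change 6.00, limma adjusted p = 0.0422). Its APOE_L values spread widely, and the adjusted p was 0.125 without APOE_L replicate 3. Lpl, the lipase that frees fatty acids from lipoprotein triglycerides, was at 42.2, 21.4 and 33.0 TPM in APOE_L and at 0.35, 0.08 and 0.97 TPM in CTRL_L. Every APOE_L library was well above CTRL_L, with a log2 fold change of 4.50 (limma adjusted p = 0.0397, or 0.0966 without APOE_L replicate 1). Outside the list, the predicted gene Gm14586 was at 73.9, 54.1 and 225 TPM in APOE_L and listed at 0 in all 3 CTRL_L libraries (limma adjusted p = 0.0166).

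Other DAM genes missed the threshold. Csf1, the growth factor of the microglial receptor Csf1r, was at 39.0, 21.6 and 25.7 TPM in APOE_L and at 0.90, 3.51 and 0 TPM in CTRL_L (limma adjusted p = 0.0743). Tyrobp, the adaptor of TREM2, was at 10077, 7735 and 9271 TPM in APOE_L and at 7138, 3169 and 3631 TPM in CTRL_L, without overlap (limma adjusted p = 0.130). Igf1, an insulin-like growth factor, was at 46.5 TPM in APOE_L replicate 1 but under 1 TPM in the other APOE_L libraries and in all of CTRL_L. Itgax, the integrin CD11c, was at 12.1, 0.05 and 6.17 TPM in APOE_L and at 0, 0.24 and 0 TPM in CTRL_L (limma adjusted p = 0.552).

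None of the 18 microglia identity genes passed the threshold, and their median log2 fold change was -0.16. P2ry12, a purinergic receptor of resting microglia, was at 2498, 3101 and 2421 TPM in APOE_L and at 9373, 2398 and 3397 TPM in CTRL_L. Apart from the high CTRL_L replicate 1, its values overlapped (limma adjusted p = 0.683). Tmem119 was at 104, 200 and 203 TPM in APOE_L and at 352, 144 and 195 TPM in CTRL_L (limma adjusted p = 0.852). Csf1r, the receptor that microglia need for survival, lay at 383, 402 and 325 TPM in APOE_L, below the 950, 501 and 432 TPM of CTRL_L, without passing (limma adjusted p = 0.685).

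Of 13 tested chemokine genes 1 rose, 4 had APOE_L values all above CTRL_L, and the median log2 fold change was 1.501. Over all tested entries 5.41% were above without overlap and 5.57% below, and over the described entries 6.45% and 7.51%. Ccl3, which attracts monocytes and other leukocytes, was at 3574, 2652 and 4807 TPM in APOE_L and at 1535, 875 and 395 TPM in CTRL_L. Its log2 fold change was 2.14 (SE 0.41, limma adjusted p = 0.0422), and the adjusted p was 0.105 without APOE_L replicate 3. Ccl2, a ligand of the monocyte receptor CCR2, was at 381, 315 and 769 TPM in APOE_L, above the 125, 83.1 and 67.7 TPM of CTRL_L (limma adjusted p = 0.0984). Ccl4 (limma adjusted p = 0.265) and Ccl12 (0.184) also had no overlap. Cxcl10, an interferon-induced chemokine, was at 0, 73.3 and 48.0 TPM in APOE_L and at 0.06, 0 and 0 TPM in CTRL_L (limma adjusted p = 0.492).

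B2m, the light chain shared by all MHC class I molecules, was the most abundant called gene with a symbol in APOE_L, at 16320, 12140 and 25500.2 TPM. CTRL_L libraries had 6871, 8041 and 4955 TPM, below every APOE_L library. The log2 fold change was 1.40 (SE 0.24, limma adjusted p = 0.0216, or 0.0684 without CTRL_L replicate 3). B2m was the only one of 13 tested MHC class I and immunoproteasome genes to pass, and their median log2 fold change was 1.08. The heavy chain H2-K1 was at 1254, 828 and 1454 TPM in APOE_L and at 703, 192 and 540 TPM in CTRL_L, without overlap (limma adjusted p = 0.294). Psmb8, a catalytic subunit of the immunoproteasome, was at 324, 360 and 139 TPM in APOE_L and at 219, 4.85 and 61.9 TPM in CTRL_L (limma adjusted p = 0.445).

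None of 7 tested class II genes passed, with a median log2 fold change of -0.27. H2-Aa, an antigen-presenting chain, was at 24.8, 52.0 and 287 TPM in APOE_L and at 123, 32.4 and 629 TPM in CTRL_L, with wide overlap. H2-Oa, not in that list, the alpha chain of the H2-O molecule that modulates peptide loading onto class II, was at 0.10, 0 and 0.78 TPM in APOE_L and at 75.5, 44.6 and 37.8 TPM in CTRL_L. It fell by 5.36 on the log2 scale (SE 0.91, limma adjusted p = 0.0216).

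No member of the interferon response list (22 tested), the Toll-like receptor and NF-kB list (16), the complement list (14), the cytokine and inflammasome list (11) or the phagocytosis and Fc receptor list (16) passed. At an unadjusted p under 0.05 there were 3 interferon, 2 Toll-like receptor, 2 complement, 0 cytokine and 3 phagocytosis genes. The share at this p was 9.92% over all tested entries and 11.7% over the described ones. These counts are thus not read as a result about the lists. The same shares stand beside the unadjusted counts of the lists below. Median log2 fold changes were 0.28 for interferon, 0.79 for Toll-like receptor, 0.001 for complement, 0.25 for cytokine and 0.60 for phagocytosis genes. Without overlap, 3 interferon genes lay above CTRL_L and 1 below. For phagocytosis genes it was 2 and 1, for Toll-like receptor genes 2 and 0, for complement genes 1 and 0. Ifitm3, an interferon-induced membrane protein, was at 248, 103 and 474 TPM in APOE_L and at 0.13, 57.2 and 54.4 TPM in CTRL_L (limma adjusted p = 0.193). Ifi27l2a was at 527, 413 and 1942 TPM in APOE_L, above the 0.28, 128 and 305 TPM of CTRL_L (limma adjusted p = 0.255). Tlr4, the endotoxin receptor, was at 33.3, 65.5 and 23.4 TPM in APOE_L and at 9.55, 3.30 and 0.06 TPM in CTRL_L (limma adjusted p = 0.326). Fcer1g, the common Fc receptor gamma chain, was at 3989, 4018 and 4258 TPM in APOE_L and at 3175, 2034 and 2413 TPM in CTRL_L (limma adjusted p = 0.326). Lower in APOE_L was Ifih1 of the interferon list, at 1.60, 0.02 and 4.25 TPM against 9.65, 14.8 and 5.27 TPM in CTRL_L (limma adjusted p = 0.607). So was Havcr2 of the phagocytosis list, at 14.9, 10.2 and 30.6 TPM against 125, 70.5 and 44.2 TPM (limma adjusted p = 0.381). The complement gene C1qb overlapped fully, at 4692, 4076 and 4362 TPM in APOE_L and at 8198, 2391 and 4236 TPM in CTRL_L.

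Among lipid genes, Ch25h, the enzyme that makes 25-hydroxycholesterol and is induced in activated macrophages, was at 65.3, 34.3 and 33.2 TPM in APOE_L and listed at 0 in all 3 CTRL_L libraries (limma adjusted p = 0.0422, or 0.119 without APOE_L replicate 1). Of 20 lipid droplet and fatty acid synthesis genes Lpl alone passed, and the median was 0.05. Acaca, the most abundant of them, overlapped between the groups (limma adjusted p = 0.968). It was at 2814, 2395 and 3243 TPM in APOE_L and at 2696, 2318 and 2890 TPM in CTRL_L. Fabp5, a fatty acid binding protein, was at 33.6, 37.0 and 43.2 TPM in APOE_L and at 0, 6.81 and 0 TPM in CTRL_L (limma adjusted p = 0.310). Lipe, the hormone-sensitive lipase, was at 95.5, 29.7 and 3.50 TPM in APOE_L and at 0.01, 3.04 and 1.26 TPM in CTRL_L (limma adjusted p = 0.397). Of 14 cholesterol efflux and lipoprotein genes Apoe alone passed. None of 18 cholesterol synthesis genes passed, with 3 at an unadjusted p under 0.05. The list was split, with 9 positive and 9 negative log2 fold changes and a median of 0.03. Msmo1, a sterol C4-methyl oxidase, came closest, at 2.84, 2.90 and 2.73 TPM in APOE_L and 89.7, 202 and 102 TPM in CTRL_L (limma adjusted p = 0.0764). Hmgcs1, which makes HMG-CoA, was at 11.3, 0 and 0 TPM in APOE_L and at 55.7, 113 and 26.8 TPM in CTRL_L (limma adjusted p = 0.146).

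Further risen genes belonged to none of these groups. Psat1, the aminotransferase of serine synthesis, was at 29.0, 48.8 and 36.6 TPM in APOE_L and at 0, 1.14 and 0 TPM in CTRL_L (log2 fold change 4.89, limma adjusted p = 0.0216). The preceding enzyme of that pathway, Phgdh, was at 0.08, 2.67 and 28.4 TPM in APOE_L and at 72.9, 77.5 and 13.4 TPM in CTRL_L (limma adjusted p = 0.542). Eif4g3, a scaffold of translation initiation, was at 13252, 13123 and 17418 TPM in APOE_L and at 5305, 9528 and 7999 TPM in CTRL_L (log2 fold change 0.97, limma adjusted p = 0.0422). It was called in fewer fits than Cst7, since leaving out a library took its adjusted p to as much as 0.135.

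Tmem170, a membrane protein, was at 1114, 399 and 27.2 TPM in APOE_L and at 0, 5.85 and 0 TPM in CTRL_L (log2 fold change 6.94, limma adjusted p = 0.0447). Ctla2b, which encodes a cysteine protease inhibitor, was at 79.2, 58.9 and 87.6 TPM in APOE_L and listed at 0 in all of CTRL_L (limma adjusted p = 0.0422). It overlaps annotated genes on the same strand, so its reads may be shared. Gm24616, a small RNA gene inside Eif4a2, was at 583, 892 and 599 TPM in APOE_L and at 0, 83.1 and 0 TPM in CTRL_L (limma adjusted p = 0.0252), while Eif4a2 itself was at 358, 248 and 175 TPM in APOE_L and at 441, 349 and 202 TPM in CTRL_L. Gm16342 was at 211, 141 and 215 TPM in APOE_L and at 14.5, 11.9 and 7.17 TPM in CTRL_L (limma adjusted p = 0.0422). The other 6 risen entries had no symbol, 5 of them assembled loci. The most abundant, MSTRG.1803, was at 17753, 17517 and 19524 TPM in APOE_L and at 3526, 7351 and 5239 TPM in CTRL_L (limma adjusted p = 0.0137).

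The 28 fallen entries were near 0 in APOE_L, in part through the way calls were chosen, since the smallest fall among them was 3.67 on the log2 scale. Their shared levels are therefore described and not read as a separate result. In APOE_L, 20 of them were under 1 TPM in every library, 6 were listed at 0 in all 3, and the highest single value was 8.61 TPM. In CTRL_L they ran from 3.33 to 889 TPM. With a symbol there were 26, all protein-coding, against 11 protein-coding among the 15 risen ones with a symbol. The median log2 fold change of the fallen was -5.70, that of the risen 5.15, and both describe how the calls were chosen.

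Chchd10, a protein of the mitochondrial intermembrane space, was at 0, 0.13 and 0 TPM in APOE_L and at 53.2, 314 and 615 TPM in CTRL_L (log2 fold change -7.72, limma adjusted p = 0.0307, or as much as 0.0902 with a library left out). Ndufaf8, an assembly factor of respiratory complex I, was listed at 0 in all of APOE_L and stood at 41.5, 72.8 and 45.0 TPM in CTRL_L (limma adjusted p = 0.0339). G6pc3, the glucose-6-phosphatase of most tissues, was at 0.73, 0 and 0 TPM in APOE_L and at 59.1, 48.8 and 13.5 TPM in CTRL_L (limma adjusted p = 0.0422). Rdh5, a retinol dehydrogenase, was at 0, 0.35 and 0 TPM in APOE_L and at 25.9, 290 and 38.5 TPM in CTRL_L (limma adjusted p = 0.0216). It overlaps Bloc1s1 on the same strand, which was at 0, 77.1 and 25.7 TPM in APOE_L and at 108, 190 and 56.6 TPM in CTRL_L.

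Cnn3, an actin-binding calponin, was at 0, 0.04 and 0 TPM in APOE_L and at 30.1, 209 and 175 TPM in CTRL_L (log2 fold change -6.69, limma adjusted p = 0.0111). Gpm6a, a membrane glycoprotein of neurons, was at 0.05, 0.05 and 0.04 TPM in APOE_L and at 50.1, 257 and 25.99 TPM in CTRL_L (log2 fold change -6.08, limma adjusted p = 0.0152). Atp1b1, the beta subunit of the sodium pump, was at 0.18, 0.22 and 0 TPM in APOE_L and at 20.9, 190 and 145 TPM in CTRL_L (log2 fold change -6.23, limma adjusted p = 0.0137). It overlaps Nme7 on the opposite strand, which was at 0, 137 and 84.8 TPM in APOE_L and at 0.07, 3.84 and 1.10 TPM in CTRL_L; the strand setting of the quantification was not given in the sources used here, so reads of the pair cannot be told apart. Slc22a17, the lipocalin-2 receptor, was at 0.96, 5.88 and 0.32 TPM in APOE_L and at 25.7, 176 and 117 TPM in CTRL_L (limma adjusted p = 0.0397). In Cnn3, Atp1b1 and Slc22a17 the lowest CTRL_L value was that of replicate 1, the CTRL_L library with few choroid plexus transcripts. Gpm6a was lowest in replicate 3. Other fallen genes, among them H2-Oa, G6pc3, Galnt10, Tle2 and Blcap, were highest in CTRL_L replicate 1. The part of choroid plexus transcripts in these falls was not tested.

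Galnt10, which starts O-linked glycosylation, was at 0.05, 0.54 and 0 TPM in APOE_L and at 115, 113 and 69.3 TPM in CTRL_L (log2 fold change -6.38, limma adjusted p = 0.0136). Cnksr3, a scaffold of kinase signalling, was at 0.03, 0.07 and 0 TPM in APOE_L and at 40.9, 99.9 and 176 TPM in CTRL_L (limma adjusted p = 0.0166). Tle2, a transcriptional corepressor, was listed at 0 in all of APOE_L and stood at 71.6, 64.1 and 34.7 TPM in CTRL_L (limma adjusted p = 0.0176). Zfp592, a zinc finger protein, was at 0.01, 4.67 and 1.77 TPM in APOE_L and at 125, 165 and 170 TPM in CTRL_L (limma adjusted p = 0.0422). Cnot10 (a CCR4-NOT subunit), Fbxo9 and Fbxo42 (F-box proteins) and Psmd5 (a chaperone of proteasome assembly) had APOE_L values of at most 5.38 TPM and CTRL_L values of at least 20.6 TPM. Their limma adjusted p was 0.0309 for Cnot10, 0.0457 for Fbxo9, 0.0477 for Fbxo42 and 0.0402 for Psmd5.

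Blcap, an apoptosis-related gene, was at 1.15, 0 and 0 TPM in APOE_L and at 108, 81.7 and 49.1 TPM in CTRL_L (limma adjusted p = 0.0162); the imprinted gene Nnat overlaps it on the opposite strand. H13, a signal peptide peptidase, was at 8.61, 0.47 and 7.14 TPM in APOE_L and at 225, 205 and 55.8 TPM in CTRL_L (limma adjusted p = 0.0397), and Mcts2, which overlaps it on the same strand, was at 12.6, 0 and 16.98 TPM in APOE_L and listed at 0 in all of CTRL_L. Nap1l5 and Serpinf2, which encodes alpha-2-antiplasmin, were listed at 0 in all of APOE_L, and in CTRL_L stood at 17.99, 39.3 and 30.2 TPM for Nap1l5 and 41.6, 10.1 and 3.33 TPM for Serpinf2 (limma adjusted p = 0.0307 for Nap1l5 and 0.0422 for Serpinf2). Tmem254a, Ccpg1os, Slc4a1ap and Aamdc completed the list of fallen genes with a symbol. Of the 41 called genes with a symbol, 24 overlapped another annotated gene.

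Of 21 tested heat shock and unfolded protein response genes none passed, but 10 had all APOE_L values below CTRL_L, 10 were at an unadjusted p under 0.05, and the median log2 fold change was -1.38. Pdia3, a disulphide isomerase of the endoplasmic reticulum, was at 40.8, 118 and 43.3 TPM in APOE_L and at 589, 233 and 496 TPM in CTRL_L (limma adjusted p = 0.0601). Hsp90aa1, a cytosolic chaperone, was at 152, 163 and 137 TPM in APOE_L and at 484, 340 and 369 TPM in CTRL_L (limma adjusted p = 0.252). Hspa5, the BiP chaperone, was at 134, 246 and 244 TPM in APOE_L and at 631, 436 and 322 TPM in CTRL_L (limma adjusted p = 0.329).

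Glycolysis genes (22 tested) had a median of -1.10, 4 below without overlap and no call. Aldoa, an aldolase, was at 159, 136 and 105 TPM in APOE_L and at 510, 604 and 559 TPM in CTRL_L (limma adjusted p = 0.359). Nuclear-encoded oxidative phosphorylation genes (34) had a median of -0.80 and 6 below without overlap. Their sum was 7483, 7643 and 7874 TPM in APOE_L and 6281, 15383 and 18223 TPM in CTRL_L, so that CTRL_L replicate 1 lay below every APOE_L library, and only CTRL_L replicates 2 and 3, those rich in choroid plexus transcripts, lay above. Medians were also negative for fatty acid oxidation genes (19; -1.23, with 0 below without overlap) and antioxidant genes (22; -0.93, with 4). Gpx4, which reduces lipid peroxides, was at 107, 271 and 187 TPM in APOE_L and at 438, 643 and 577 TPM in CTRL_L (limma adjusted p = 0.262). Mitochondrially encoded genes (12) had a median of 0.28, with mt-Nd2 and mt-Nd3 above and mt-Co1 below without overlap. None of these lists had a member past the threshold.

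Cytosolic ribosomal protein genes (40 tested) had a median log2 fold change of 0.76, 12 above and 2 below without overlap, and no call, with 8 at an unadjusted p under 0.05. Rps14 was at 1445, 989.9 and 1180.3 TPM in APOE_L and at 456, 365 and 387 TPM in CTRL_L (limma adjusted p = 0.0743). Rps27 was at 1543, 1236 and 1868 TPM in APOE_L and at 387, 810 and 511 TPM in CTRL_L (limma adjusted p = 0.0800), whereas Rpl3 was at 89.9, 53.9 and 70.2 TPM in APOE_L and at 152, 212 and 113 TPM in CTRL_L (limma adjusted p = 0.598). Proteasome subunits (22) had a median of -0.55 with 1 above and 5 below. Gas5, a non-coding host of small nucleolar RNAs, was at 1375, 1193 and 1284 TPM in APOE_L and at 511, 550 and 688 TPM in CTRL_L (limma adjusted p = 0.184). Malat1, a nuclear long non-coding RNA, was at 7565, 6942 and 5856 TPM in APOE_L and at 15776, 12823 and 8659 TPM in CTRL_L (limma adjusted p = 0.325).

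Immediate early genes are switched on by neurons and microglia within minutes of stimulation. The 19 tested had a median log2 fold change of -0.50 and no call. Of them, 16 had a negative fold change and 3 a positive one. All APOE_L values lay below CTRL_L in 4 (Fosb, Dusp1, Klf2 and Jund) and above in 0. Over all tested entries 5.57% lay below without overlap, and over the described ones 7.51%. Fos was at 1266, 1729 and 1214 TPM in APOE_L and at 1832, 1270 and 1590 TPM in CTRL_L (limma adjusted p = 0.939). Cathepsin and lysosome genes (27 tested) had a median of -0.17 and none passed. Cst3, cystatin C, the most abundant of the genes named here, overlapped between the groups, at 39705, 49840 and 36820 TPM in APOE_L and 69311, 30168 and 31371 TPM in CTRL_L. Cell cycle (16), iron and ferritin (11), adenosine and purinergic (14), growth factor (13), microglial transcription factor (19) and long non-coding RNA (12) lists also held no called member.

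**Figure D3:**
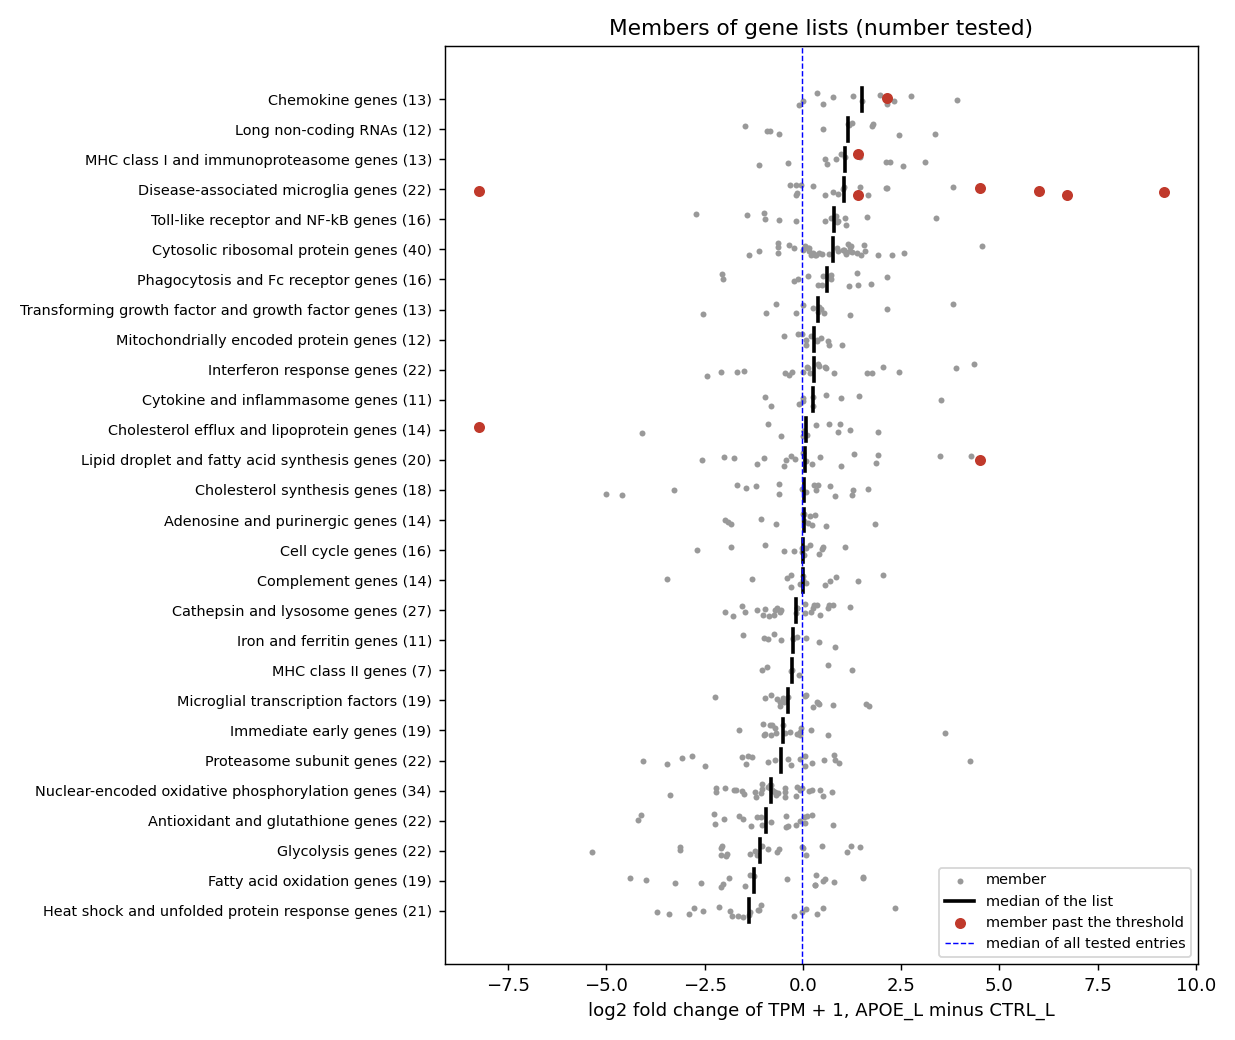
Log2 fold change of TPM + 1, APOE_L minus CTRL_L, for the tested members of each gene list other than the lists of cell type markers, with the number tested in brackets; each point is a gene, black bars are list medians, red points passed the threshold and the dashed line is the median of all 17505 tested entries (-0.02). In these lists medians run from 1.501 for chemokine genes to -1.38 for heat shock and unfolded protein response genes. Calls are in 5 of the lists shown. Apoe, Lpl and B2m are each in the DAM list and in another list, so their calls are shown more than once.

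KA_L shares the CTRL_L libraries with the comparison above, so its levels are set beside those of APOE_L and the test given is that of the difference between APOE_L and KA_L. It called 8 entries of 17505 (0.0457%), 6 higher in APOE_L (0.0343%) and 2 lower (0.0114%). Of the 49 entries called between APOE_L and CTRL_L, 2 passed it, Apoe and the assembled locus MSTRG.11897, and 47 missed the threshold, which does not show that their levels were alike. MSTRG.11897 was at 51.3, 70.8 and 10.9 TPM in APOE_L and listed at 0 in all KA_L and CTRL_L libraries (limma adjusted p = 0.0486 against KA_L). Its adjusted p against CTRL_L was as much as 0.0549 with a library left out.

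Cst7 was at 331, 344 and 317 TPM in KA_L. APOE_L lay 0.99 above KA_L on the log2 scale, with a 95% interval from -0.12 to 2.11 (limma adjusted p = 0.703). Spp1 stood at 112, 128 and 344 TPM in KA_L, a difference of -0.44 with an interval from -3.03 to 2.16. Lpl was at 51.7, 24.2 and 26.4 TPM in KA_L, with an interval of the difference from -1.85 to 1.76. Ccl3 was at 3249, 4611 and 3440 TPM in KA_L, with an interval from -0.93 to 0.81. Eif4g3 was at 14924, 13908 and 14215 TPM in KA_L, with the narrowest of these intervals, from -0.39 to 0.42.

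Some genes were nearer to CTRL_L than to APOE_L in KA_L, without passing the test against KA_L. B2m was at 7809.99, 8625 and 8137 TPM in KA_L, below every APOE_L library, and APOE_L lay 1.07 above KA_L (interval 0.57 to 1.57, limma adjusted p = 0.153). Ch25h was at 0.04, 2.24 and 0 TPM in KA_L (limma adjusted p = 0.153 for APOE_L against KA_L). Tmem170 was at 0, 1.92 and 2.51 TPM in KA_L (limma adjusted p = 0.132). H2-Oa was at 64.5, 17.4 and 12.1 TPM in KA_L, above every APOE_L library (difference -4.33, interval -6.26 to -2.39, limma adjusted p = 0.140). G6pc3 was at 6.70, 66.4 and 22.7 TPM in KA_L, again above every APOE_L library (limma adjusted p = 0.156).

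Most other fallen genes were low in KA_L too. Cnn3 was at 0.10, 0 and 0 TPM in KA_L, Atp1b1 at 0, 0.02 and 0.03 TPM and Gpm6a at 0, 0.02 and 0 TPM. Chchd10 was at 0, 132 and 0.07 TPM in KA_L, with 1 library in the range of CTRL_L. H2-Aa, which missed the threshold between APOE_L and CTRL_L, was at 0.10, 0.09 and 0.13 TPM in KA_L, so that APOE_L was 6.05 above KA_L on the log2 scale (limma adjusted p = 0.0468).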

How the data were processed

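RNA sequencing of mouse brain gave 15 libraries in 5 groups of 3, assigned by the labels; the comparison uses APOE_L and CTRL_L, with KA_L beside them. The authors deposited transcript abundance as TPM, and every library sums to 1000000. Per the submitters' processing notes the aligner was STAR and the build GRCh38, a human assembly, whereas the identifiers are mouse; the quantification tool, annotation, strand setting and versions are not given in the sources used here. TPM keeps no depth, so no counting interval is given and the precision behind a value is unknown. An exact 0 can be a failed estimate and is given as listed at 0. Symbols came from GENCODE M21 and matched 52083 of 55416 Ensembl entries; 10548 further entries are assembled loci. Promoters came from RefSeq (GRCm38.p6), matching 3 of 3 genes.

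The 17505 entries that reached 1 TPM in 3 or more of the 15 libraries were tested on log2(TPM + 1), a pseudocount that understates changes of low genes. Limma 3.58.1 in R 4.3.3 (eBayes with trend) fitted 5 group means in 1 fit, leaving 10 degrees of freedom for the residual and a prior of 6.67 (median). P-values are two-sided and Benjamini-Hochberg adjusted over all tested entries, with a threshold of 0.05. The fit was tested on simulated data. The genes considered for naming were Apoe, every called list member, the 3 most abundant members of each list and defining cell type markers. Up to 15 called genes per direction with the largest fold change, no overlap and a mean of at least 5 TPM were added. So were up to 10 further called genes whose mean reached 20 TPM in each group. Not all of these are given with values above. Other genes were named after their values were seen. The members and the gene lists were chosen with earlier results of these data known. In all 18 alternatives were tried: pseudocount, filter, scaling, samples in the fit, trend, replicate block and leaving out each library. Of the called genes with a symbol, 1 is not reported here and is not plotted by library.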

Additional observations from a re-analysis of the deposited data

How the results depend on the processing

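Of the 49 calls, 12 were made without each of the 6 libraries in turn, Apoe and Cst7 were made under 17 of 18 alternatives, and no direction reversed in any of the 49. Leaving out a library gave 12 to 40 higher and 17 to 114 lower calls, against 21 and 28 as reported; the largest counts came without CTRL_L replicate 1, where 41 of the 49 remained among 154 calls, and the fewest remained without APOE_L replicate 1 (15). Higher calls numbered 12 with a pseudocount of 5, 11 with no filter on low values, 42 with the filter on the 6 libraries and 13 after quantile normalization. Lower calls numbered 56 with the filter on the 6 libraries and 18 with upper-quartile scaling, where 25 were higher. With the 6 libraries alone there were 0 higher and 0 lower calls in limma. Of the 17505 tested entries, 959 then had an unadjusted p under 0.05. Apoe kept its log2 fold change of -8.24 at a limma adjusted p of 0.518. With the 9 L libraries alone 1 was higher (Cst7) and 1 lower (Apoe). With the replicate block, 10 were higher and 14 lower, 24 of the 49. Deviations of same-numbered APOE_L and CTRL_L libraries from their group means correlated between -0.019 and 0.00257. In libraries that agree this poorly gene by gene, such a correlation cannot show whether the numbers pair the samples. Of the calls, 2 also passed against KA_L as reported and 1 under a pseudocount of 0.1 or 5, no filter, a minimum of 5 TPM, assembled loci left out, the 9 L libraries alone and the replicate block, with 1 to 3 when a library was left out. Of 681 list medians under the alternatives, 8 moved by more than the median standard error of the genes in the list. That margin is the error of a single gene, so smaller shifts of a median were not counted. The cause of these shifts was not tested. Depth is unknown, so what it limits cannot be given.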
